A study of Mus musculus with 8 samples.

Results

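The genes described here are those of mouse potassium channels, read in hippocampal RNA from wild-type mice and mice homozygous for a mutation of Wfs1. They were taken by symbol from 1 deposited table of counts: every entry whose symbol starts with Kcn, except Kcnj8, Kcnj10 and Kcnj13 and any entry marked as a duplicate. That gave 92 of 24078 entries, of which 90 passed the filter on low counts and were tested; Kcnk15 and Kcnk16 did not pass. The series compared 4 mice homozygous for the Wfs1tm1Koks targeted mutation (replicates 15, 16, 17 and 18) with 4 wild-type mice (replicates 7, 8, 9 and 10), each library holding RNA of the dissected hippocampus of 1 animal. No treatment is given in the labels for either genotype, and both carry the same strain label. The sources used here do not give age, sex or litter. Wfs1 encodes wolframin, a membrane protein of the endoplasmic reticulum that is lost in human Wolfram syndrome.

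Potassium channels let potassium leave a neuron and so set its resting voltage, shorten its spikes and limit how often it fires. Voltage-gated (Kv) channels open on depolarization and are built from pore subunits and cytosolic or single-pass auxiliary subunits. Inward rectifiers hold the resting voltage or answer to G proteins or ATP, tandem-pore-domain (K2P) channels carry background leak, and calcium-activated channels close the loop between spikes, calcium entry and repolarization. In the hippocampus, A-type Kv channels of dendrites, the M-current channels and the G-protein-gated inward rectifiers are the textbook brakes on pyramidal cell excitability.

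Library totals ran from 3250949 to 6747411 counts. Levels are given as CPM (counts relative to library size after TMM scaling for composition), as the mean ± SD of the 4 libraries of a genotype, and differences as the log2 fold change of homozygous over wild-type with its SE. A gene is said to have risen or fallen when its adjusted p was under 0.05 in edgeR's quasi-likelihood test, adjusted by Benjamini-Hochberg over all 20478 entries tested. Wfs1 checked the labels: it stood at 51.8 ± 7.47 CPM in wild-type and 14.8 ± 2.61 CPM in homozygous ones, with no overlap. Markers of hippocampal neurons were present in every library, and 4 of the 8 were lower in homozygous, the summed level being 1349 to 1745 CPM in wild-type and 746 to 926 CPM in homozygous libraries. The lists for astrocytes (3 of 5 lower, 2838 to 3556 CPM in wild-type and 1899 to 2134 CPM in homozygous), oligodendrocytes (4 of 5 lower, 1232 to 1984 CPM in wild-type and 839.7 to 1047 CPM in homozygous) and vessel cells (3 of 5 lower, 244 to 310.0 CPM in wild-type and 159.8 to 169.7 CPM in homozygous) were lower as well, with no marker at 0 in any library. Interneuron markers were lower in 3 of 5, microglial markers in 2 of 5 and choroid plexus markers in 1 of 5. Of the lists for striatum and thalamus, 1 of 5 markers was higher in each and 0 were lower. The striatal markers summed to 139 to 271 CPM in wild-type and 141 to 233 CPM in homozygous libraries. The thalamic markers summed to 141 to 210 CPM in wild-type and 176 to 216 CPM in homozygous libraries. The part of these lists in the results below was not tested. In bulk tissue, fewer cells of a type and less RNA per cell cannot be told apart.

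Across the 90 tested potassium channel genes, 22 rose and 29 fell in homozygous hippocampus, and 39 passed in neither direction. These counts, and those given below for channel genes as a whole, include the non-coding Kcnq1ot1, which is not a channel and was 1 of the 22. The background was high: 20.7% of all entries rose and 20.3% fell, against 24.4% and 32.2% of the channel genes; in either direction it was 41.1% of all entries and 56.7% of the channel genes. The median log2 fold change was -0.14 for the channel genes and 0.05 for all entries. The 4 homozygous values lay above all 4 wild-type values for 19 channel genes and below them for 27, where 18.8% and 18.8% of all entries did so (37.6% together). The split moved with the scaling: with library totals alone, 31 channel genes were higher and 17 lower, with 32.4% and 11.8% of all entries (44.2% together), whose median moved to 0.25. In further alternatives, called trends removed below, a smooth dependence of each library's log level on a gene's abundance, or on its density (its counts per kilobase), was taken out before the test. The count of channel genes that rose was 14 without wild-type replicate 7 and 14 without wild-type replicate 10. That was 15.6% in each fit, against 15.8% and 16.8% of all entries.

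The 39 genes that did not pass had log2 fold changes from -0.35 (Kcnh6) to 0.48 (Kcng3). Besides Kcnq3 and Kcnj15, described below, 3 of them passed when 1 library was left out: Kcng3 as higher without homozygous replicate 16 (adjusted p 0.00928), Kcnu1 as higher without homozygous replicate 17 (adjusted p 0.0423) and Kcnh6 as lower without wild-type replicate 7 (adjusted p 0.038). With library totals as the only scaling, Kcnk3, Kcnn3, Kcnj15, Kcnj16, Kcng3, Kcnu1, Kcnq1, Kcne4 and Kcns1 passed as higher, where 32.4% of all entries did. Their adjusted p ran from 0.0121 (Kcnj15) to 0.0318 (Kcnn3).

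**Figure D1:**
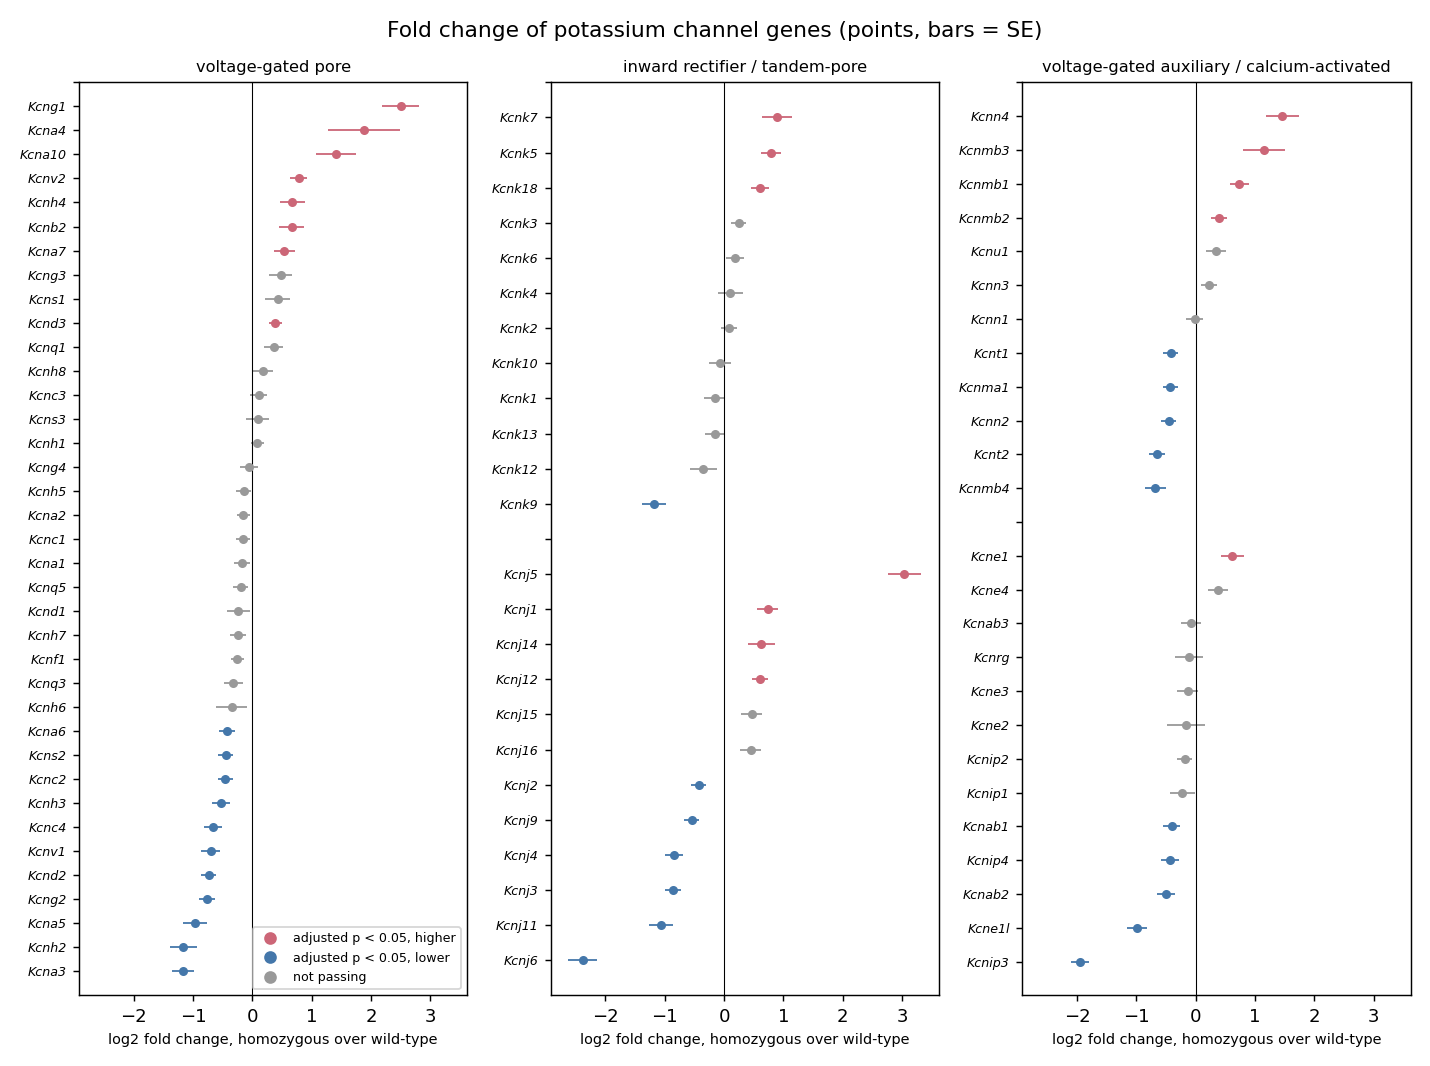
Log2 fold change (homozygous over wild-type, horizontal axis) of 86 tested protein-coding potassium channel genes, arranged by subfamily, with the SE as bars and colour marking genes past an adjusted p of 0.05. Kcnj5 and Kcng1 lie farthest to the right, and Kcnj6 and Kcnip3 farthest to the left.

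The inward rectifiers held the largest changes in both directions. Of 12 tested, 4 rose (33.3%, against 20.7% of all entries), 6 fell (50%, against 20.3%) and 2 passed in neither direction. With library totals as the only scaling 6 were higher and 5 lower (50% and 41.7%, against 32.4% and 11.8% of all entries). With the abundance trend removed they were 4 and 5 (33.3% and 41.7%, against 16.9% and 18.2%). With the density trend removed they were 3 and 5 (25% and 41.7%, against 15.6% and 18.7%). The G-protein-gated (GIRK) subunits are the clearest case, since 3 of the 4 fell and the fourth rose. Their upstream sequence is shown because these members form channels together and their transcripts went in opposite directions. The sequences are from RefSeq on GRCm38.p6 (mm10), read 5′ to 3′ on the gene's strand, from 250 bases before each listed start up to the start or to the first annotated exon base of the gene. Capitals mark matches, on either strand, to any of 7 motifs searched. These were the CCAAT box (its own name spells it), the GC box written GGGCGG, the TATA box written TATAAA and the E-box written CACGTG. The other 3 were the cyclic AMP response element written TGACGTCA, an unfolded-protein-response element written TGACGTGG, and the ER stress element, which contains a CCAAT box.
Kcnj3, chr2:55435720-55435969, plus strand: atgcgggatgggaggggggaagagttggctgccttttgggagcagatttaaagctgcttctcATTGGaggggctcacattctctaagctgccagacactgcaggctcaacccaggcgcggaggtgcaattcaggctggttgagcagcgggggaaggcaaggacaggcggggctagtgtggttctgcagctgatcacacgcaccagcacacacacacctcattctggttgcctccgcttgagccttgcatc
Kcnj9, chr1:172329323-172329572, minus strand: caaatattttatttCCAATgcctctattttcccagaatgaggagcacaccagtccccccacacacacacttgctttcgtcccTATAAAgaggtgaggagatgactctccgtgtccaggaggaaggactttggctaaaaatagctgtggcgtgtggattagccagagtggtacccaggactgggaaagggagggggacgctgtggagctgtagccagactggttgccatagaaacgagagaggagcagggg
Kcnj6 first start, chr16:94997702-94997946, minus strand: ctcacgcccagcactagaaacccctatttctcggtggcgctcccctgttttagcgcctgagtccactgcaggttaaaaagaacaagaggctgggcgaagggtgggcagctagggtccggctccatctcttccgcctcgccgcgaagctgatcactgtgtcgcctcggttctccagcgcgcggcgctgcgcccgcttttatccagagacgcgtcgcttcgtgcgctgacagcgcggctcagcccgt
Kcnj6 second start, chr16:94856691-94856940, minus strand: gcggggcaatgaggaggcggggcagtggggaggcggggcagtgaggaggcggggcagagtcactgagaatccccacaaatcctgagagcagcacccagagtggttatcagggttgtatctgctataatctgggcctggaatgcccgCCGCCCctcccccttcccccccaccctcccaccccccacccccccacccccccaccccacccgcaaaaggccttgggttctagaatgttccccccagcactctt
Kcnj5, chr9:32344351-32344594, minus strand: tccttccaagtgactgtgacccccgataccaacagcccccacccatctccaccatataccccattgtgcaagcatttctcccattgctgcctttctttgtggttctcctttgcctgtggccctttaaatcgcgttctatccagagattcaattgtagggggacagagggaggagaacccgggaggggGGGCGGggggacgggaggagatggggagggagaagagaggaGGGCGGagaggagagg
A match describes these letters only. Kcnj3 and Kcnj9 held the CCAAT box, found in 33.8% of the 32851 upstream windows of 250 bases, and Kcnj9 also held the TATA box (12.4%). The GC box (32.7%) stood upstream of Kcnj5 and of the second Kcnj6 start. None of the 5 windows held the E-box (6.02%), the cyclic AMP response element (1.55%), the unfolded-protein-response element (0.563%) or the ER stress element (0.113%). RefSeq windows matched 67 of the 92 genes by symbol.

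Kcnj6 encodes GIRK2, the main neuronal subunit of channels opened by Gi-coupled receptors (chromosome 16, positions 94748636 to 94997701, minus strand in mm10). Its values, in the order of the replicates given above, were 1927, 1429, 1166 and 1521 CPM in the wild-type mice against 275, 398, 197 and 285 CPM in the homozygous mice. Every homozygous library lay far below every wild-type one, with means of 1511 ± 316 CPM and 289 ± 82.9 CPM (± SD, n = 4 per genotype; a log2 fold change of -2.39, SE 0.24, adjusted p 5.51e-05). Kcnj3 encodes GIRK1, an obligate partner that depends on other subunits to reach the membrane (chromosome 2, positions 55435970 to 55598145, plus strand). Its wild-type values were 54.0, 40.6, 50.5 and 43.0 CPM and its homozygous values 30.8, 23.7, 24.5 and 24.3 CPM. The groups did not overlap, and the gene fell (log2 fold change of -0.86, SE 0.14, adjusted p 0.000979). The lincRNA entry Gm26794, on the opposite strand, overlaps 31.1% of its exon length. Kcnj9, which encodes the neuronal subunit GIRK3 (chromosome 1, positions 172320501 to 172329318, minus strand), was at 69.2, 66.6, 73.9 and 75.3 CPM in wild-type and 45.3, 41.1, 51.9 and 57.4 CPM in homozygous libraries. It fell by less (log2 fold change of -0.55, SE 0.13, adjusted p 0.00657), again without overlap.

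Kcnj5 encodes GIRK4, best known from the atrium of the heart, where it forms the acetylcholine-activated channel with GIRK1 (chromosome 9, positions 32314707 to 32344350, minus strand). It was at 22.9, 29.7, 24.8 and 24.5 CPM in wild-type and 297, 171, 108 and 259 CPM in homozygous libraries. All 4 homozygous values were well above the wild-type range, although they spread widely among themselves. The mean rose from 25.5 ± 2.97 to 209 ± 85.8 CPM (± SD, n = 4 per genotype; a log2 fold change of 3.04, SE 0.28, adjusted p 3.56e-05). Per kilobase of exon, so that genes can be compared, Kcnj6 made up 82.6% to 88.9% of the summed level of the 4 GIRK transcripts in wild-type libraries and 31.1% to 50.8% in homozygous ones. Kcnj5 made up 1.72% to 2.93% and 35.0% to 54.7%. The summed level itself ran from 185 to 284 CPM per kilobase in the wild-type mice, against 65.6 to 116 in the homozygous ones. The antisense entry Gm41505 overlaps 4.98% of the exon length of Kcnj6, and the strand setting of the counting was not found in the labels, so that reads of the pair cannot be told apart. All 4 GIRK calls held, in the same direction, in every alternative run.

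**Figure D2:**
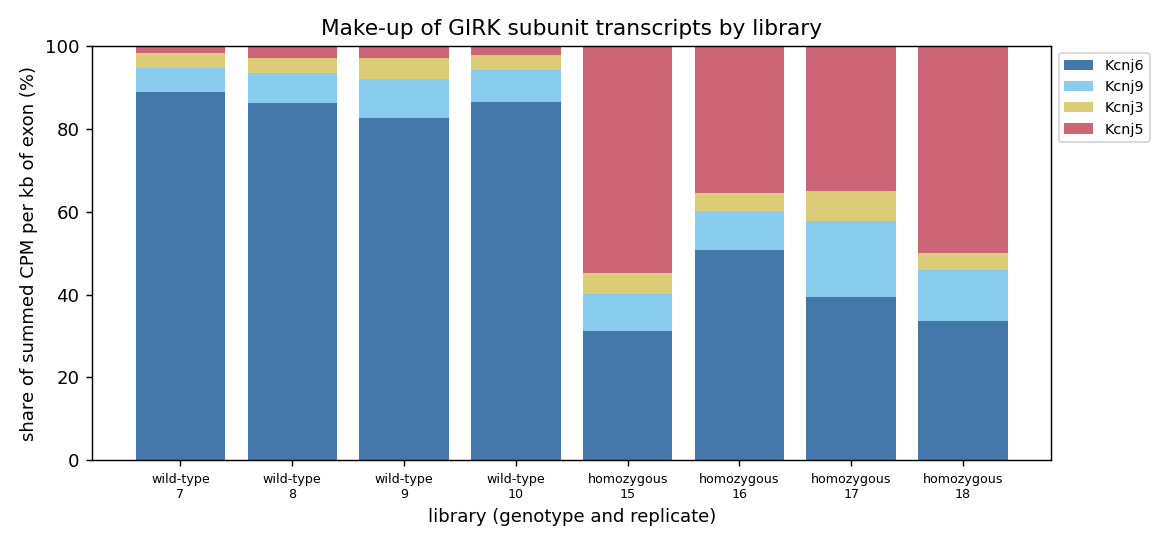
Share of each G-protein-gated inward rectifier transcript in the summed CPM per kilobase of exon (vertical axis, percent), 1 bar per library. Kcnj6 fills 82.6% to 88.9% of the bar in the 4 wild-type libraries, and Kcnj5 fills 35.0% to 54.7% in the 4 homozygous libraries.

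Among the other inward rectifiers, Kcnj11 and Kcnj4 fell. Kcnj11 encodes the pore of the ATP-sensitive channel that couples metabolism to voltage. It stood at 50.2, 28.1, 54.4 and 36.3 CPM in wild-type and 19.5, 17.1, 23.6 and 21.4 CPM in homozygous libraries (log2 fold change of -1.06, SE 0.20, adjusted p 0.0023), and the wild-type values were more spread than the homozygous ones. Kcnj4, a strong rectifier of forebrain neurons, went from 74.2 ± 13.0 to 41.5 ± 4.75 CPM (log2 fold change of -0.84, SE 0.15, adjusted p 0.00143). The strong rectifier Kcnj2 also fell (-0.43, SE 0.13, adjusted p 0.0229), but not without wild-type replicate 7 (adjusted p 0.0687) or 10 (adjusted p 0.0575), nor with library totals (-0.23, adjusted p 0.188), after taking out the abundance trend (-0.27, adjusted p 0.127) or after taking out the density trend (-0.23, adjusted p 0.181). In the other direction, Kcnj12, from the same strong rectifier branch, rose from 22.8 ± 3.54 to 34.5 ± 2.0 CPM (0.61, SE 0.14, adjusted p 0.00564), with no overlap. Kcnj1, the renal outer medullary channel, rose from 11.9 ± 2.1 to 19.6 ± 2.75 CPM (0.74, SE 0.18, adjusted p 0.00754). Kcnj14 was called higher (0.62, SE 0.23, adjusted p 0.047) but with overlapping groups, and not without wild-type replicate 7 (adjusted p 0.111), 9 (adjusted p 0.0956) or 10 (adjusted p 0.13) or without homozygous replicate 15 (adjusted p 0.166, log2 fold change 0.41), 16 (adjusted p 0.0565) or 18 (adjusted p 0.0517), nor with RLE factors, with no filter, with at least 1 CPM in 4 libraries, after taking out the abundance trend (0.50, adjusted p 0.108), after taking out the density trend (0.49, adjusted p 0.118) or with DESeq2. Kcnj15 and Kcnj16 did not pass (0.46, SE 0.18, adjusted p 0.0548 for Kcnj15 and 0.45, SE 0.18, adjusted p 0.0626 for Kcnj16). Kcnj15 was called higher without homozygous replicate 15 (adjusted p 0.042) or 16 (adjusted p 0.0196). It was also called higher with library totals (0.65, adjusted p 0.0121) and after taking out the abundance trend (0.54, adjusted p 0.0327). Kcnj16 was called higher with library totals (0.64, adjusted p 0.0137).

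**Figure D3:**
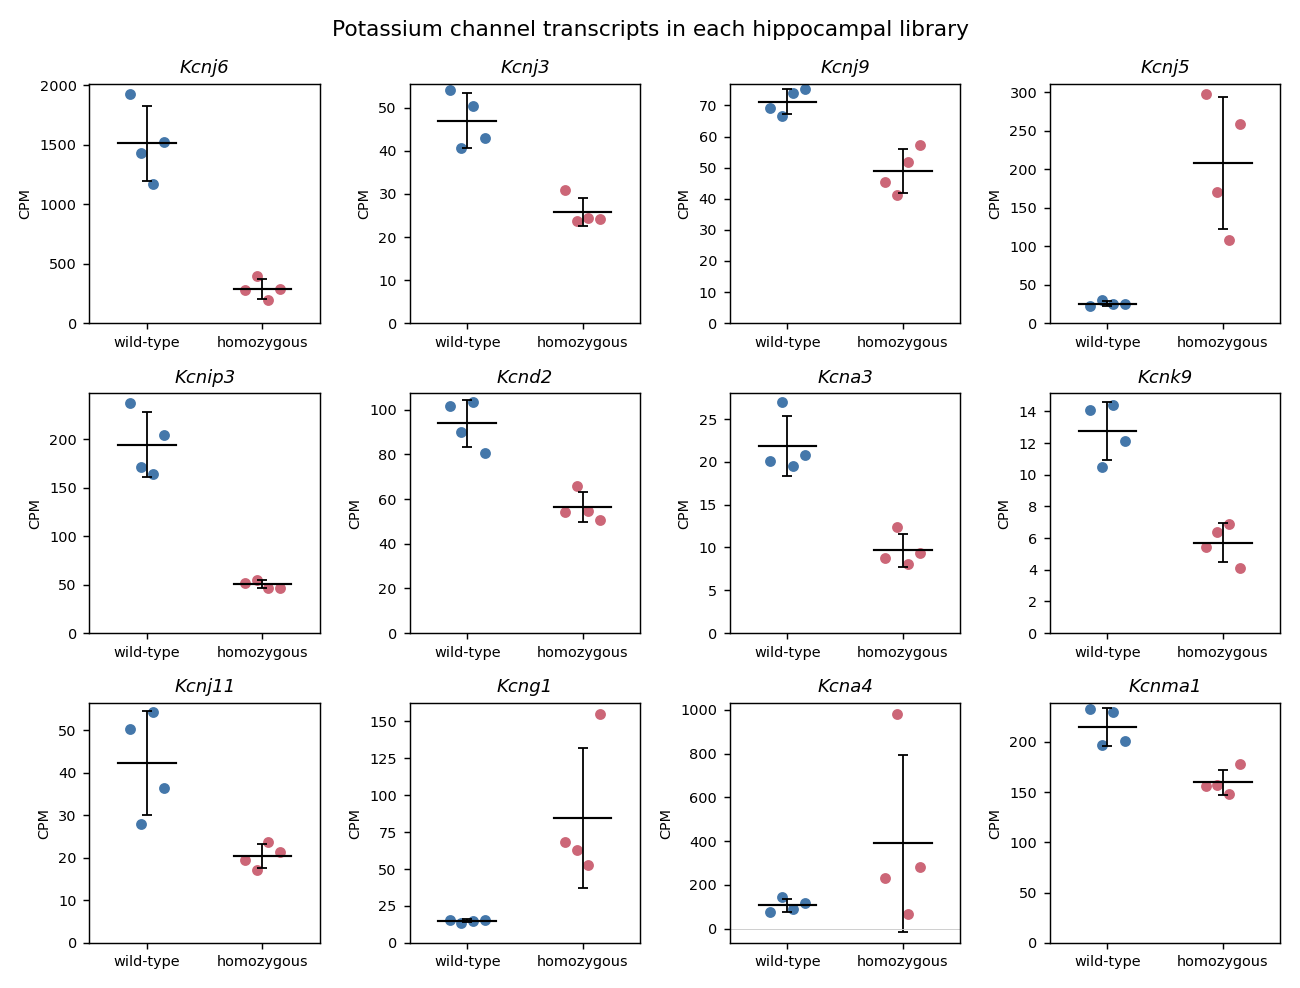
CPM (vertical axis) of 12 potassium channel genes in each library, points being libraries, horizontal bars the means and error bars the SD over 4 libraries. Homozygous points lie apart from wild-type points in all panels but that of Kcna4, where 1 homozygous library lies below the wild-type range and 1 far above the rest.

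Voltage-gated pore subunits moved both ways. Of 40 tested, 9 rose (22.5%, against 20.7% of all entries), 12 fell (30%, against 20.3%) and 19 passed in neither direction. With library totals as the only scaling 12 were higher and 7 lower (30% and 17.5%, against 32.4% and 11.8% of all entries). With the abundance trend removed they were 9 and 10 (22.5% and 25%, against 16.9% and 18.2%). With the density trend removed they were 6 and 13 (15% and 32.5%, against 15.6% and 18.7%). The number that rose was 4 without wild-type replicate 7 and 5 without wild-type replicate 10, where 15.8% and 16.8% of all entries rose. Among the Kv1 (Shaker) genes, Kcna1 and Kcna2 were not called. Kcna1, the axonal low-threshold subunit, stood at 202 ± 22.5 and 178 ± 18.7 CPM (-0.18, SE 0.13, adjusted p 0.307), and its usual partner Kcna2 at 150.2 ± 7.63 and 135 ± 9.53 CPM (-0.15, SE 0.11, adjusted p 0.301). The sign of both differences was positive with library totals or with the abundance trend removed. Kcna3, a Kv1 subunit of neurons and immune cells, was at 20.1, 27.0, 19.5 and 20.8 CPM in wild-type and 8.8, 12.5, 8.07 and 9.37 CPM in homozygous libraries. It fell with the groups apart (log2 fold change of -1.17, SE 0.18, adjusted p 0.000722). Kcna5 fell from 30.4 ± 6.28 to 15.4 ± 3.54 CPM (-0.97, SE 0.20, adjusted p 0.00364). Kcna6 fell with -0.43, SE 0.13, adjusted p 0.0239, but was not called without wild-type replicate 7 (adjusted p 0.0725) or 9 (adjusted p 0.0663) or without homozygous replicate 15 (adjusted p 0.0674), nor with library totals (-0.23, adjusted p 0.175) or after taking out the abundance trend (-0.34, adjusted p 0.0588), and the antisense entry Gm26673 overlaps 39.6% of its exon length.

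Kcna4, the A-type Kv1 subunit of hippocampal axons, was the most uneven of these genes. Wild-type values were 74.3, 144, 89.2 and 115 CPM, and homozygous values, from replicate 15 to replicate 18, were 231, 980.5, 64.3 and 281 CPM. Replicate 16 stood far above the rest while replicate 17 lay below every wild-type library, so that the groups overlapped. It was called higher (log2 fold change of 1.88, SE 0.61, adjusted p 0.0283), but not without wild-type replicate 7 (adjusted p 0.0746), 9 (adjusted p 0.0728) or 10 (adjusted p 0.0588) or without homozygous replicate 16 (adjusted p 0.0985, log2 fold change 0.86), nor with limma-voom. Kcna10 rose from 5.42 ± 0.992 to 14.9 ± 8.45 CPM (1.41, SE 0.34, adjusted p 0.00687), with homozygous replicate 18 at 27.5 CPM against 10.1 to 11.4 in the other 3. Kcna7 rose too (0.54, SE 0.18, adjusted p 0.0322), but with overlap and not without wild-type replicate 7 (adjusted p 0.0916), 8 (adjusted p 0.0796) or 10 (adjusted p 0.0552) or without homozygous replicate 17 (adjusted p 0.0663) or 18 (adjusted p 0.0958), nor with limma-voom.

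In the Kv2 family, Kcnb2 was called higher (0.66, SE 0.21, adjusted p 0.0277) but not without wild-type replicate 7 (adjusted p 0.0514), 8 (adjusted p 0.0718), 9 (adjusted p 0.0501) or 10 (adjusted p 0.061) or without homozygous replicate 18 (adjusted p 0.055, log2 fold change 0.38), nor after taking out the density trend (0.48, adjusted p 0.112). Silent subunits, which form no channel alone and modify Kv2 channels, number 10. Of these, 2 rose, 3 fell and 5 (Kcnf1, Kcng3, Kcng4, Kcns1 and Kcns3) did not pass, where 20.7% of all entries rose and 20.3% fell. Kcng1 (Kv6.1; chromosome 2, positions 168260117 to 168281736, minus strand) was at 15.4, 13.5, 14.9 and 15.7 CPM in wild-type and 68.1, 63.1, 52.5 and 155 CPM in homozygous libraries. All homozygous values were over the narrow wild-type range, replicate 18 being the highest, and the gene rose from 14.9 ± 0.97 to 84.7 ± 47.4 CPM (log2 fold change of 2.50, SE 0.31, adjusted p 0.000221). Kcng2 fell from 23.6 ± 2.14 to 13.8 ± 0.851 CPM (-0.77, SE 0.14, adjusted p 0.00143). Kcnv2 rose (0.78, SE 0.15, adjusted p 0.00194), while Kcnv1 (-0.70, SE 0.17, adjusted p 0.00645) and Kcns2 (-0.45, SE 0.12, adjusted p 0.0137) fell, all 3 with the groups apart. Kcns2 was not called with library totals (-0.25, adjusted p 0.116).

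Kv3 channels repolarize fast-spiking interneurons. Kcnc4, an A-type Kv3 subunit, fell from 51.8 ± 9.85 to 32.6 ± 4.0 CPM (-0.66, SE 0.16, adjusted p 0.00641). Kcnc2 fell from 132 ± 7.33 to 96.6 ± 12.4 CPM (-0.46, SE 0.13, adjusted p 0.0139), without a call with library totals (-0.26, adjusted p 0.119), after taking out the abundance trend (-0.22, adjusted p 0.157) or after taking out the density trend (-0.24, adjusted p 0.128). Kcnc1 did not pass (155 ± 5.32 and 139 ± 8.81 CPM; -0.16, SE 0.11, adjusted p 0.276), and its sign was positive with library totals or with either trend removed. The 5 interneuron markers summed to 291 to 340.2 CPM in wild-type and 213 to 254 CPM in homozygous libraries, and their part in these results was not tested.

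Kv4 genes, which carry the dendritic A-type current, went in different directions. Kcnd2, the principal Kv4 subunit of CA1 dendrites, was at 101, 89.9, 103 and 80.5 CPM in wild-type and 54.2, 66.0, 54.5 and 50.6 CPM in homozygous libraries. The groups did not overlap and it fell from 93.8 ± 10.7 to 56.3 ± 6.69 CPM (log2 fold change of -0.74, SE 0.13, adjusted p 0.00157). Kcnd3 was at 61.9, 59.8, 65.6 and 59.1 CPM in wild-type and 77.1, 72.1, 88.2 and 84.9 CPM in homozygous libraries, and rose (0.39, SE 0.11, adjusted p 0.0189) with no overlap. That call ended without wild-type replicate 7 (adjusted p 0.0516) or 10 (adjusted p 0.0585) or without homozygous replicate 17 (adjusted p 0.0515) and after removal of the density trend (0.28, adjusted p 0.0766).

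Of the Kv7 family, Kcnq3, a subunit of M-current channels, was at 45.0 ± 9.08 and 36.1 ± 4.7 CPM (-0.32, SE 0.16, adjusted p 0.133) and the related Kcnq5 at 69.3 ± 8.59 and 60.4 ± 5.85 CPM (-0.20, SE 0.13, adjusted p 0.235), neither passing. Kcnq3 did pass as lower without wild-type replicate 8 (log2 fold change -0.45, adjusted p 0.0355) and after removal of the density trend (-0.51, adjusted p 0.038).

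Among ether-a-go-go (Kcnh) genes, Kcnh2, the ERG channel known for its cardiac repolarizing current, fell from a mean of 103 ± 25.2 to one of 46.0 ± 12 CPM. Its values were 102, 125, 68.3 and 118 CPM in wild-type and 43.5, 30.7, 50.7 and 59.1 CPM in homozygous libraries, apart but with a wide wild-type spread (log2 fold change of -1.16, SE 0.22, adjusted p 0.00226). Kcnh3, an ELK channel of forebrain, also fell (-0.53, SE 0.15, adjusted p 0.014) with overlap, not without wild-type replicate 7 (adjusted p 0.0512), nor with library totals (-0.33, adjusted p 0.109). Kcnh4 was called higher (0.68, SE 0.22, adjusted p 0.0279), with overlap and not without wild-type replicate 7 (adjusted p 0.0743) or 8 (adjusted p 0.0621) or without homozygous replicate 15 (adjusted p 0.0637) or 16 (adjusted p 0.0656, log2 fold change 0.44), nor after taking out the density trend (0.53, adjusted p 0.0736). The remaining 5 Kcnh genes did not pass, though Kcnh7 was called lower after taking out the density trend (-0.43, adjusted p 0.0353).

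Of the 13 auxiliary subunits of voltage-gated channels, 5 fell, 1 rose and 7 did not pass, where 20.3% of all entries fell and 20.7% rose. Of these 6 calls, 4 ended under at least 1 alternative. With library totals as the only scaling 2 of the 13 were higher and 2 lower, where 32.4% and 11.8% of all entries were. With the abundance trend removed they were 0 and 2, and with the density trend removed 0 and 3 (15.6% and 18.7% of all entries with the latter). The share called lower was 15.4% with the abundance trend removed, against 18.2% of all entries. Kcnip3 encodes KChIP3, also called calsenilin or DREAM, a calcium sensor that binds Kv4 channels, presenilins and DNA (chromosome 2, positions 127456498 to 127522094, minus strand). It was at 238, 171, 164 and 204 CPM in wild-type and 52.1, 55.0, 47.0 and 46.8 CPM in homozygous libraries. The homozygous values were close together and far below the wild-type ones, the mean falling from 194 ± 33.8 to 50.2 ± 4.02 CPM (± SD, n = 4 per genotype; a log2 fold change of -1.95, SE 0.15, adjusted p 9.34e-06). Kcne1l, a single-pass subunit gene now called Kcne5, fell from 19.6 ± 2.89 to 9.81 ± 1.01 CPM (-0.99, SE 0.16, adjusted p 0.00106). These calls held in every alternative run.

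Kcnip4, the KChIP that slows Kv4 inactivation, was called lower (-0.44, SE 0.15, adjusted p 0.0382), but its groups overlapped and the call ended without wild-type replicate 8 (adjusted p 0.0725) or 10 (adjusted p 0.0941) or without homozygous replicate 15 (adjusted p 0.0665), 16 (adjusted p 0.0672) or 17 (adjusted p 0.088), nor with library totals (-0.24, adjusted p 0.221), after taking out the abundance trend (-0.39, adjusted p 0.0673), after taking out the density trend (-0.35, adjusted p 0.0989) or with limma-voom. Kcnab2, the Kvβ2 subunit of axonal Kv1 channels, was the most abundant auxiliary gene per kilobase of exon (77.0 CPM per kilobase in wild-type and 54.5 in homozygous). It was called lower (-0.50, SE 0.16, adjusted p 0.0258) with the groups apart, but not without wild-type replicate 7 (adjusted p 0.0866) or 9 (adjusted p 0.0851) or without homozygous replicate 15 (adjusted p 0.0634), nor with library totals (-0.30, adjusted p 0.148). With the trends removed its difference was 0.02 (abundance, adjusted p 0.942) and 0.04 (density, adjusted p 0.845). Kcnab1 was called lower with overlap (-0.40, SE 0.15, adjusted p 0.0448), not without wild-type replicate 7 (adjusted p 0.0921), 9 (adjusted p 0.105) or 10 (adjusted p 0.0904) or without homozygous replicate 15 (adjusted p 0.105), 16 (adjusted p 0.0937) or 17 (adjusted p 0.0679), nor with library totals (-0.21, adjusted p 0.263) or after taking out the abundance trend (-0.27, adjusted p 0.164). Kcne1 was the auxiliary gene that rose (0.62, SE 0.20, adjusted p 0.0265), not without wild-type replicate 7 (adjusted p 0.0584), 8 (adjusted p 0.0546) or 10 (adjusted p 0.0627) or without homozygous replicate 16 (adjusted p 0.0604, log2 fold change 0.40), nor after taking out the abundance trend (0.48, adjusted p 0.0773) or after taking out the density trend (0.45, adjusted p 0.0927). The 13 together held 789 to 1025 CPM in wild-type libraries against 579 to 625 CPM in homozygous libraries. Of this, Kcnab2 alone had means of 430 and 304 CPM, and Kcnip3 of 194 and 50.2 CPM. Kcne2, a subunit also found in the choroid plexus, was at 40.4, 25, 29.7 and 21.8 CPM in wild-type and 24.7, 47.2, 15.9 and 17.3 CPM in homozygous libraries and did not pass (-0.16, SE 0.32, adjusted p 0.699). Its sign turned positive in 4 alternatives. The 5 choroid plexus markers summed to 87.2 to 1173 CPM over the 8 libraries (97.6 CPM in homozygous replicate 16). Their part in the Kcne2 values was not tested.

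Of 12 tandem-pore leak channels tested, 3 rose, 1 fell and 8 passed in neither direction, a called share of 33.3% against 41.1% of all entries. The gene that fell was Kcnk9 (TASK-3, an acid-sensitive leak channel): 14.1, 10.5, 14.4 and 12.2 CPM in wild-type and 5.46, 6.37, 6.92 and 4.1 CPM in homozygous libraries, all below (log2 fold change of -1.18, SE 0.20, adjusted p 0.00118). These values rest on 14 to 90 counts per library. Kcnk5 (TASK-2) rose from 15.2 ± 1.22 to 26.3 ± 4.99 CPM (0.79, SE 0.17, adjusted p 0.00377) and Kcnk18 (TRESK, known from sensory neurons) from 19.3 ± 1.11 to 29.5 ± 5.15 CPM (0.61, SE 0.15, adjusted p 0.00825). Kcnk7 rose from 3.76 ± 0.325 to 7.02 ± 2.17 CPM (0.89, SE 0.25, adjusted p 0.0141), without a call when the abundance trend was removed (0.66, adjusted p 0.0649). The Kcnk7 values rest on 12 to 35 counts per library. Other well-studied members did not pass: Kcnk1 (TWIK-1) at 108 ± 11.2 and 96.1 ± 24.3 CPM (-0.16, SE 0.18, adjusted p 0.482), Kcnk2 (TREK-1) at 35.8 ± 3.68 and 37.9 ± 4.69 CPM (0.08, SE 0.13, adjusted p 0.647), and Kcnk3 (TASK-1) at 41.2 ± 2.96 and 48.8 ± 6.29 CPM (0.24, SE 0.13, adjusted p 0.139). The sign for Kcnk1 turned with library totals or either trend removed, and that for Kcnk2 with the density trend removed. Kcnk3 was called higher with library totals (0.44, adjusted p 0.0144). The untested Kcnk15 and Kcnk16 were at 1.78 and 2.4 CPM and at 1.31 and 2.14 CPM.

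Calcium-activated channels and their Slo relatives had 4 of 12 members higher (33.3%, against 20.7% of all entries), 5 lower (41.7%, against 20.3%) and 3 passing in neither direction. With library totals as the only scaling 6 were higher and 2 lower (50% and 16.7%, against 32.4% and 11.8% of all entries). With the abundance trend removed they were 2 and 4 (16.7% and 33.3%, against 16.9% and 18.2%). With the density trend removed they were 2 and 5 (16.7% and 41.7%, against 15.6% and 18.7%). The number that rose was 2 without wild-type replicate 9 or 10 or homozygous replicate 15 or 16. That was 16.7% in each fit, against 15.6% to 18.9% of all entries. The number that fell was 3 without wild-type replicate 9 or homozygous replicate 15 (25%, against 16.3% and 17.1% of all entries). Kcnma1, the pore of the large-conductance (BK) channel, was at 233, 196, 229.5 and 201 CPM in wild-type and 156, 157, 148 and 178 CPM in homozygous libraries. It fell (-0.43, SE 0.12, adjusted p 0.0177) with the groups apart, but the call ended without wild-type replicate 7 (adjusted p 0.0623) or 9 (adjusted p 0.0576) and with library totals (-0.23, adjusted p 0.155) or after taking out the abundance trend (-0.07, adjusted p 0.66). Its neuronal auxiliary subunit Kcnmb4 was at 26.5, 26.7, 26.1 and 26.8 CPM in wild-type, a spread of under 1 CPM, and at 20.3, 11.6, 14.7 and 19.0 CPM in homozygous libraries. Kcnmb4 fell (-0.68, SE 0.17, adjusted p 0.00902), and its antisense neighbour Kcnmb4os2 overlaps 20.8% of its exon length and Kcnmb4os1 a further 10.7%. The smooth muscle BK subunit gene Kcnmb1 rose from 18.7 ± 4.15 to 30.7 ± 2.58 CPM (0.73, SE 0.16, adjusted p 0.00468). The part of vessel cells in this result was not tested. Kcnmb2 was called higher (0.39, SE 0.14, adjusted p 0.0375), not without wild-type replicate 7 (adjusted p 0.092), 9 (adjusted p 0.11) or 10 (adjusted p 0.0715) or without homozygous replicate 15 (adjusted p 0.0786), 16 (adjusted p 0.0536) or 18 (adjusted p 0.0778), nor after taking out the abundance trend (0.30, adjusted p 0.0974), after taking out the density trend (0.27, adjusted p 0.131) or with DESeq2. Kcnmb3 was called higher too (1.15, SE 0.36, adjusted p 0.0244), but its groups overlapped and its values rest on 11 to 54 counts per library. That call ended without wild-type replicate 9 (adjusted p 0.0738) or 10 (adjusted p 0.0559) or without homozygous replicate 15 (adjusted p 0.0697) or 16 (adjusted p 0.0591). It also ended after taking out the abundance trend (0.90, adjusted p 0.0651) or the density trend (0.96, adjusted p 0.0537).

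Of the small- and intermediate-conductance channels, Kcnn2 (SK2), which shapes the afterhyperpolarization of CA1 neurons, fell from 33.0 ± 3.08 to 24.1 ± 2.66 CPM (-0.46, SE 0.13, adjusted p 0.0169), though not without wild-type replicate 9 (adjusted p 0.0534) or without homozygous replicate 15 (adjusted p 0.054), nor with library totals (-0.26, adjusted p 0.119). Kcnn1 (SK1) was at 28.4 ± 1.56 and 28.1 ± 4.59 CPM (-0.02, SE 0.14, adjusted p 0.925) and Kcnn3 (SK3) at 35.7 ± 4.31 and 41.6 ± 3.83 CPM (0.22, SE 0.13, adjusted p 0.185), neither passing. The Kcnn1 difference was positive with library totals or without homozygous replicate 15 or 16. Kcnn3 was called higher with library totals (0.42, adjusted p 0.0318). Kcnn4, the intermediate-conductance channel best known from blood cells and microglia, had few counts: 5.13, 4.06, 3.2 and 4.82 CPM in wild-type and 7.4, 16.8, 12.4 and 11.4 CPM in homozygous libraries, the homozygous values all being higher (log2 fold change of 1.46, SE 0.27, adjusted p 0.00204). The summed microglial markers ran 161 to 211 CPM in wild-type and 154 to 240.3 CPM in homozygous libraries, 0 of 5 being called higher, and their part in this result was not tested. The sodium-activated channel genes Kcnt2 (52.8 ± 8.71 to 33.3 ± 2.21 CPM; -0.66, SE 0.14, adjusted p 0.00328) and Kcnt1 (48.6 ± 5.44 to 36.1 ± 4.2 CPM; -0.42, SE 0.13, adjusted p 0.0222) both fell with no overlap, the latter not without homozygous replicate 15 (adjusted p 0.0637), nor with library totals (-0.22, adjusted p 0.172).

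The remaining entry is not a channel. Kcnq1ot1 is a long imprinted RNA, antisense to Kcnq1, with a single exon span of 93092 bp on chromosome 7, positions 143203458 to 143296549, minus strand. It was at 682, 708, 622 and 673 CPM in wild-type and 1514, 1379.8, 1595 and 1931 CPM in homozygous libraries, and rose from 671 ± 35.8 to 1605 ± 235 CPM (log2 fold change of 1.26, SE 0.16, adjusted p 0.000261). Kcnq1 itself, with 2.96% of its exon length overlapped by Kcnq1ot1, was at 10.6 ± 1.11 and 13.5 ± 1.18 CPM; its groups did not overlap but it did not pass (0.36, SE 0.16, adjusted p 0.0867).

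Genes that work with potassium channels but are not named Kcn were listed as well. Of 26 such partners, all tested, 2 rose, 12 fell and the other 12 were not called, where 20.7% of all entries rose and 20.3% fell. The list had a median log2 fold change of -0.31, against 0.05 for all entries. With the abundance trend removed, 4 of the 12 lower calls ended: those of Dpp6 (-0.29, adjusted p 0.128), Dlg2 (-0.23, adjusted p 0.153), Ank3 (-0.17, adjusted p 0.272) and Rgs7 (-0.27, adjusted p 0.106). With the density trend removed, those of Rgs7 (-0.34, adjusted p 0.0551) and Amigo1 (-0.41, adjusted p 0.0704) ended. Dlg1, among the 12 not called, was called lower there (-0.35, adjusted p 0.04). The other alternatives were not looked at for the partners. Rgs7 encodes a regulator that ends GIRK signalling, and was called lower with the limits just given (-0.35, SE 0.13, adjusted p 0.0438). Gnb5, the G-protein beta subunit that stabilizes it (-0.90, SE 0.18, adjusted p 0.00256), and its membrane anchor gene Rgs7bp (-0.73, SE 0.13, adjusted p 0.00142) fell. Of the Kv4 partners, the dipeptidyl-peptidase-like gene Dpp6 was called lower (-0.48, SE 0.14, adjusted p 0.0182) and Dpp10 did not pass (0.05, SE 0.25, adjusted p 0.882). Amigo1, the adhesion subunit of Kv2 channels, fell from 139 ± 30.2 to 86.0 ± 5.7 CPM (-0.69, SE 0.16, adjusted p 0.0055), and so did Vapa, the ER tether of Kv2 channels (-0.72, SE 0.12, adjusted p 0.000883), while its relative Vapb did not pass (-0.20, SE 0.12, adjusted p 0.194). Of the BK gamma subunits, Lrrc55 fell (-1.18, SE 0.19, adjusted p 0.000984). Lrrc52, the partner of the sperm channel Kcnu1, rose from a low 5.81 ± 0.382 to 11.2 ± 1.59 CPM (0.96, SE 0.18, adjusted p 0.00177). Lrrc26 (-0.18, SE 0.22, adjusted p 0.534) and Lrrc38 (-0.08, SE 0.15, adjusted p 0.685) did not pass. Abcc9, the SUR2 subunit of ATP-sensitive channels, rose (0.52, SE 0.12, adjusted p 0.0055), and Abcc8 (SUR1) did not pass (0.17, SE 0.17, adjusted p 0.428).

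By level per kilobase of exon, Kcnj6 ranked first of the 92 in wild-type libraries (198 CPM per kilobase), followed by Kcnab2 (77.0), Kcnip3 (54.8), Kcnk1 (48.1) and Kcna1 (42.2). In homozygous libraries the order was Kcna4 (80.5, raised by replicate 16), Kcnab2 (54.5), Kcnj5 (44.5), Kcnk1 (43.0) and Kcnj6 (37.9). Kcnj5 had ranked 58 in wild-type and Kcng1 rose from rank 74 to 9. Together the 92 entries held 6463 to 7442 CPM in wild-type libraries against 5865 to 7153 CPM in homozygous ones, ranges that overlap. They include Kcnq1ot1, which is not a channel, at 622 to 708 CPM in wild-type and 1380 to 1931 CPM in homozygous libraries. Without Kcnq1ot1 the ranges did not overlap, the homozygous sums being lower. Without both Kcnq1ot1 and Kcnj6 they were 4433 to 4833 CPM in wild-type and 4073 to 5090 CPM in homozygous libraries, and overlapped.

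**Figure D4:**
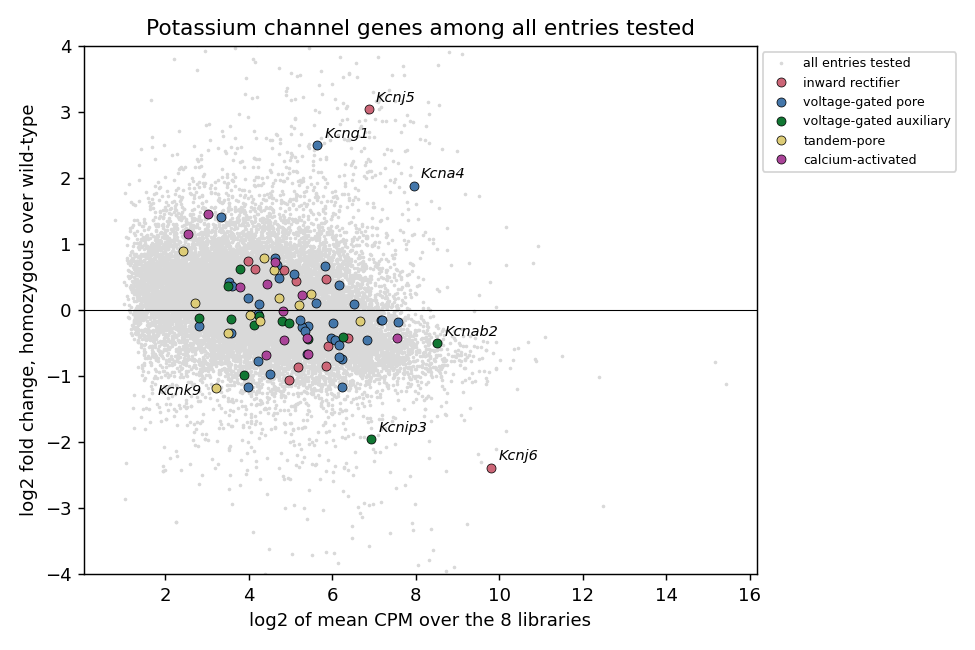
Log2 fold change (vertical axis) against the log2 of mean CPM over the 8 libraries (horizontal axis) for all entries tested (grey) and for channel genes by subfamily (coloured); 62 entries beyond ±4 are not drawn. Most channel genes lie within the grey cloud, and Kcnj6, Kcnip3, Kcnj5, Kcng1 and Kcna4 lie at its edge or outside.

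Called genes differed in level. The channel genes that fell had a median level of 57.9 CPM, those that rose (with Kcnq1ot1 among them) 24.7 CPM and the others 27.7 CPM. These medians were not taken over all entries, so the difference is not shown to be particular to channel genes. When a smooth trend of each library on gene abundance was removed, 17 of the 22 genes kept their call as higher and 22 of the 29 as lower. Removing a trend on density (counts per kilobase) left 15 and 25. In these settings 16.9% and 15.6% of all entries were higher, 18.2% and 18.7% lower, and 35.1% and 34.2% one or the other. Calls kept in every alternative run numbered 12 higher and 17 lower, a count that was not made over all entries. Among them were Kcnj5, Kcng1, Kcnv2, Kcnn4 and Kcnk5 as higher, and Kcnj6, Kcnj3, Kcnj9, Kcnj11, Kcnj4, Kcnip3, Kcnd2, Kcna3, Kcnh2 and Kcnk9 as lower.

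**Figure D5:**
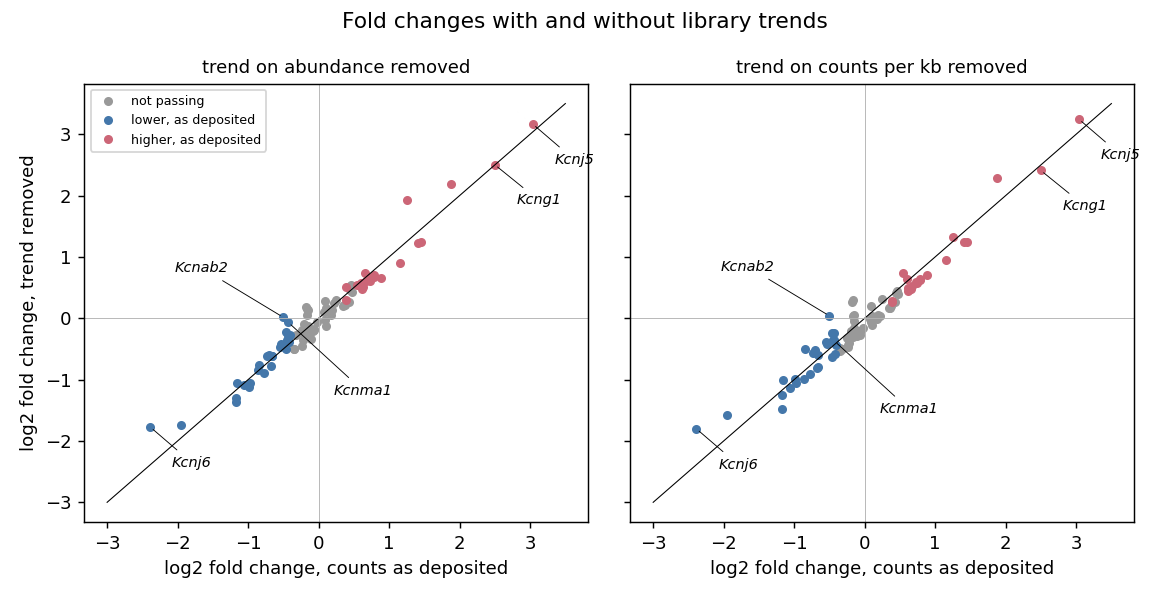
Log2 fold change of 87 channel entries as deposited (horizontal axis) against that after removing a library trend on abundance (left) or on counts per kilobase of exon (right), colour marking the call as deposited; the line marks equal values. Kcnj5, Kcnj6 and Kcng1 stay far from zero, and Kcnab2 moves to about zero in both panels.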

How the data were processed

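Ribosomal RNA was removed from hippocampal total RNA, and the barcoded libraries were read in pairs on a SOLiD 4 instrument, per the labels' protocols. The values used are the raw whole-number counts for each gene symbol that the authors deposited as 1 table, with mm10 as build per the submitters' processing notes. Aligner, counting program, strand setting and annotation: not given in the sources used here. Columns were assigned by the labels' sample names, and 0 columns belonged to no listed sample.

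filterByExpr of edgeR 4.0.16 (R 4.3.3) kept 20478 of 24078 entries. TMM scaling and edgeR's two-sided quasi-likelihood test compared the genotypes with no covariate, and p was adjusted by Benjamini-Hochberg over all entries tested. The SE is the fold change divided by the root of the F statistic. P-values set the genotype difference against the spread among the animals within each genotype, 4 and 4. Any handling that went along with genotype cannot be told apart from it. Exon lengths and positions came from GENCODE M21 (97.6% of entries matched), and RefSeq promoters from GRCm38.p6. Exons of 28 members overlap another gene's.

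The alternatives were RLE factors, library totals, no filter, at least 1 CPM in 4 libraries, DESeq2 1.42.0, limma-voom (limma 3.58.1) with quality weights, removal of a loess trend (span 0.3) on abundance or on counts per kilobase, and leaving out each library. The code was tested on simulated counts. The named genes were, per subfamily, up to 6 called members of smallest p and the 3 of highest level per kilobase, plus a textbook list (44 in all here), and 18 further ones (with Kcnq1 and the partners named) were chosen after their values were seen. Other genes are given by counts and ranges, and a few genes, kept in every count, are not reported here. The members, subfamilies and lists were chosen with earlier results of these data known. Tables and figures used Python 3.11.15, pandas 2.3.3, NumPy 2.4.6 and matplotlib 3.10.9.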

Additional observations from a re-analysis of the deposited data

Results flagged for a closer look

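Within a genotype, 1 library stood apart from the other 3 in 9 of 124 groups of 4 values looked at (62 named genes in 2 genotypes) by Dixon's 95% criterion on the gap to the nearest value; chance alone gives about 5% of groups. Kcnt1 was at 42.4 CPM in homozygous replicate 17 and at 33.5 to 34.8 CPM in the other 3. Kcnj3 was at 30.8 CPM in homozygous replicate 15 and at 23.7 to 24.5 CPM in the other 3. Kcng1 was at 155 CPM in homozygous replicate 18 and at 52.5 to 68.1 CPM in the other 3. Kcna3 was at 27.0 CPM in wild-type replicate 8 and at 19.5 to 20.8 CPM in the other 3. Kcnmb1 was at 34.5 CPM in homozygous replicate 15 and at 29.0 to 29.7 CPM in the other 3. Kcnj4 was at 48.6 CPM in homozygous replicate 18 and at 38.7 to 39.5 CPM in the other 3. Kcne1 was at 23.7 CPM in homozygous replicate 16 and at 13.8 to 15.3 CPM in the other 3. Kcna10 was at 27.5 CPM in homozygous replicate 18 and at 10.1 to 11.4 CPM in the other 3. Kcnj16 was at 57.0 CPM in homozygous replicate 16 and at 35.0 to 35.4 CPM in the other 3.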

How the results depend on the processing

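No paired analysis was possible because the genotypes share no replicate number in the labels. Leaving out each library in turn moved these counts by over 1.5 times: channel genes higher 22 (14 to 21), voltage-gated pore genes higher 9 (4 to 8), voltage-gated auxiliary genes higher 1 (0 to 1), voltage-gated auxiliary genes lower 5 (2 to 5), calcium-activated genes higher 4 (2 to 5), calcium-activated genes lower 5 (3 to 5), with the range over the 8 fits in parentheses. With library totals as the only scaling there were 17 channel genes lower, 7 voltage-gated pore genes lower, 2 voltage-gated auxiliary genes higher, 2 voltage-gated auxiliary genes lower, 2 calcium-activated genes lower, and among the named genes the sign turned for Kcna2 (0.046), Kcna1 (0.021), Kcnc1 (0.042), Kcnn1 (0.18), Kcnk1 (0.043), Kcne2 (0.039). With the abundance trend removed there were 0 voltage-gated auxiliary genes higher, 2 voltage-gated auxiliary genes lower, 2 calcium-activated genes higher, and among the named genes the sign turned for Kcna2 (0.14), Kcnab2 (0.015), Kcna1 (0.19), Kcnc1 (0.14), Kcnk1 (0.053). With the density trend removed there were 0 voltage-gated auxiliary genes higher, 3 voltage-gated auxiliary genes lower, 2 calcium-activated genes higher, and among the named genes the sign turned for Kcnk2 (-0.019), Kcnab2 (0.039), Kcna1 (0.26), Kcnc1 (0.050), Kcnk1 (0.30), Kcne2 (0.039). Among the named genes, leaving out a library turned Kcnn1 (0.047 without homozygous replicate 15), Kcnn1 (0.044 without homozygous replicate 16), Kcne2 (0.029 without wild-type replicate 7), Kcne2 (0.0018 without homozygous replicate 17), within ranges of -0.11 to 0.047 for Kcnn1 and -0.59 to 0.029 for Kcne2 over the 8 fits. Of these genes, only Kcnab2 was called in the fit described above, and none was called with its sign turned. RLE factors, the other filters, DESeq2 and limma-voom kept 20 to 21 of the 22 higher and 28 to 29 of the 29 lower calls. Of the 51 called genes, 32 stayed called without each library in turn and 19 lost the call at least once, and the cause was not tested. The same count was not made over all entries. In these 8 fits 31.9% to 38.9% of all entries were called, against 41.1% with all libraries. Genes such as Kcnk15, Kcnk16 and Kcnn4 rest on few counts, and small differences in them were not detectable at this depth.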

Other observations

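Some potassium channel genes lie within 100 kb of each other on a chromosome, and their directions were alike in some pairs and unlike in others. On chromosome 9, Kcnj5 (log2 fold change 3.04) and Kcnj1 (0.74) both rose, with 28.1 kb between them. On chromosome 3, Kcna3 fell (-1.17), Kcna2 did not pass (-0.15) and Kcna10 rose (1.41), with gaps of 63.1 and 68.1 kb. On chromosome 6, Kcna1 (-0.18) did not pass and Kcna6 (-0.43), at 61.9 kb from it, fell, and on chromosome 11 Kcnj16 (0.45) did not pass while Kcnj2 (-0.43), at 38.2 kb, fell. On chromosome 16, Kcne2 (-0.16) did not pass and Kcne1 (0.62), at 47.9 kb, rose. Kcnmb1 (0.73, higher) lies inside the span of Kcnip1 (-0.23, not passing) on chromosome 11. These pairs were looked at after their values were seen, and no test was made of them.

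The 12 inward rectifiers together held 1658 to 2445 CPM in wild-type libraries against 699 to 969 CPM in homozygous ones, with no overlap, and without Kcnj6 they held 449 to 517 and 502 to 684 CPM. The 40 voltage-gated pore genes summed to 2348 to 2449 and 2248 to 3198 CPM, the 14 tandem-pore genes to 302 to 342 and 309.8 to 369 CPM, and the 12 calcium-activated genes to 486 to 509 and 417 to 442 CPM. The sums of the calcium-activated genes did not overlap between genotypes, and those of the voltage-gated pore and tandem-pore genes did. Single genes weighed heavily. Kcnma1 alone had means of 215 CPM in wild-type and 160 CPM in homozygous libraries, against 498 and 430 CPM for the calcium-activated sum. Kcnj5 alone had means of 25.5 and 209 CPM, against 483 and 599 CPM for the inward rectifiers without Kcnj6. Sums weigh each gene by its count, and no test was made of them.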
